A study of Gallus gallus with 28 samples.

Results

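B7.10, a line of DT40 in which BTK has been knocked out, was compared with parental DT40 after 6 h of stimulation through the B-cell receptor. The comparison used the 6 arrays titled S6 of these lines, 3 of B7.10 and 3 of DT40, out of 28 arrays in the series. Both lines were started in serum-free medium, grown in fetal calf serum, and stimulated with M4, an anti-chicken-IgM monoclonal that the labels write as IgM (M4). The 3 arrays of a line came from 3 batches of serum, and each array read a pool of 10 repeated experiments, so the spread between arrays is a spread between pools. B7.10 is 1 line, and what separates it from DT40 besides BTK cannot be told apart from the loss of BTK in these arrays. Set beside them were the 12 arrays of the same lines without stimulation at 6 h and 24 h, and 1 stimulated 6 h array each of B41-13 (knockout cells reconstituted with human BTK) and B46-5 (reconstituted with the kinase-inactive human form). The labels of some arrays contradict each other. The B7.10 array titled serum batch 2 is described as batch 6, the one titled batch 3 is described as unstimulated, and the source names of the B41-13 and B46-5 arrays both give B46-5 at 2 h. Arrays were grouped by title. The counts of calls over all genes and over most gene lists are also given without the 2 disputed B7.10 arrays. That fit keeps 1 stimulated B7.10 array, so a call lost in it cannot tell the disputed labels from the smaller number of arrays.

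DT40 cells derive from a chicken B-cell lymphoma, express IgM at their surface, and have been used widely to disrupt genes of receptor signalling. When the receptor is crosslinked, the SRC-family kinase LYN and the kinase SYK act first. BTK, a TEC-family kinase, is then recruited to the membrane and activates phospholipase C gamma 2. The products of that enzyme release calcium and activate protein kinase C, and from there the signal runs to NFAT, NF-kB and, through RASGRP proteins, the RAS and MAP kinase route.

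BTK itself was read by 1 probe set. Its level was 5.14, 5.12 and 4.70 log2 in the B7.10 arrays of serum batches 1, 2 and 3, against 9.69, 9.77 and 9.34 in the DT40 arrays. All B7.10 arrays lay far below all DT40 arrays. The difference was -4.61 ± 0.16 log2 (SE, 3 arrays each; limma, Benjamini-Hochberg adjusted p = 1.08e-12), 24.5-fold lower. The arrays average whole cultures, so fewer cells with a transcript and less transcript per cell cannot be told apart, here and below. Of 18 B-cell markers 13 were measured. Of these 4 were called higher in B7.10 and 2 lower, EBF1 and the knocked-out BTK (46.2%, against 7.89% of all genes). Only 1 of the 13 lay near background in either line. Near background means under 3.98 log2, the level below which the dimmest 40% of probe sets lie. Markers of fibroblasts lay there for 15 of 26 in both lines, those of epithelial cells for 10 of 20, those of T cells for 8 of 17 in B7.10 and 9 of 17 in DT40, those of myeloid cells for 4 and 5 of 17, and those of erythroid cells and thrombocytes for 4 of 13. The log2 of their summed levels lay between 9.34 and 9.48 in B7.10 and between 9.74 and 9.99 in DT40 for fibroblasts, and between 9.99 and 10.02 in B7.10 and between 10.28 and 10.44 in DT40 for myeloid cells. For T cells it was 12.19 to 12.33 in B7.10 and 11.83 to 12.10 in DT40, with the T-cell receptor component CD3D alone at 12.23, 12.08 and 12.21 in B7.10 and at 11.86, 11.99 and 11.70 in DT40. Of the markers of other cells 2 passed the test, CYBB and the matrix proteoglycan BGN, which was lower in B7.10 by 3.10 ± 0.27 log2, with 4.96, 5.19 and 4.75 in B7.10 and 8.14, 7.63 and 8.43 in DT40. The part of other cells in the results was not tested.

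The comparison asked how expression differs between stimulated cells without and with BTK. Of 13009 genes, each read by its brightest probe set, 1026 passed limma at an adjusted p under 0.05 (7.89%). In B7.10, 447 were higher (3.44%) and 579 lower (4.45%). A difference of at least 2-fold was found for 282 genes (2.17%), 96 higher (0.738%) and 186 lower (1.43%). Over all 38382 probe sets 2071 passed (5.4%), 952 higher (2.48%) and 1119 lower (2.92%). Every one of the 1026 genes had the same direction in all 3 serum batches, and the arrays of both lines did not overlap for 1024 of them, against 30.0% of all genes. The genes were called on these same arrays, so both counts describe the calls and test nothing, as does a lack of overlap for a called gene below. The number of calls depended on which arrays were kept. Without both disputed B7.10 arrays 958 probe sets passed (2.5%) and 467 genes (3.59%), and all 1026 genes kept their direction while 450 of them kept their call, 225 of the 282 with a 2-fold difference among them. The balance of directions then turned round, with 553 probe sets higher and 405 lower, as it did without the B7.10 array of batch 2 alone, with 1007 higher and 914 lower. Without the B7.10 array of batch 1 it was 1304 probe sets, without that of batch 3 it was 1261, without all arrays of batch 1 it was 795 and without all of batch 3 it was 921.

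The largest higher difference in B7.10 was that of IGF2BP3. IGF2BP3, an RNA-binding protein that acts on mRNA stability and translation, read 11.04, 10.79 and 11.06 log2 in B7.10, against 6.10, 4.36 and 4.36 in DT40. It stood high in every B7.10 array and varied among the DT40 arrays, where batch 1 was highest. The difference was 6.03 ± 0.49 log2 (SE; limma adjusted p = 1.92e-07), 65.2-fold. IL13RA1, a receptor chain for interleukin 13, read 7.96, 7.50 and 7.85 in B7.10, against 3.99, 3.74 and 3.84 in DT40, where it lay near background. Its difference of 3.91 ± 0.17 (adjusted p = 3.26e-11) is therefore a lower bound. The other probe set of IL13RA1 passed at 0.72. PROM1, a glycoprotein of membrane protrusions, read 7.28, 5.63 and 6.75 in B7.10, against 3.16, 3.07 and 3.72 in DT40 near background, a difference of 3.24 ± 0.43, or 3.97 without both disputed arrays, each a lower bound. Of its 3 other probe sets 1 also passed, at 0.70.

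The sodium leak channel NALCN read 10.08, 9.08 and 9.76 log2 in B7.10, against 6.59, 6.70 and 6.24 in DT40. MAPK11, a stress-activated kinase of the p38 type, read 7.76, 7.44 and 7.56 in B7.10, against 4.73, 4.56 and 5.35 in DT40. Neither gene showed any overlap, and the differences were 3.13 ± 0.30 (adjusted p = 1.52e-06) and 2.71 ± 0.18 (adjusted p = 1.28e-08). RGCC, which regulates the cell cycle, was higher by 2.66 ± 0.32, the hydrolase NUDT12 by 2.62 ± 0.18, the heparin-binding growth factor MDK by 2.50 ± 0.51, FAM89A by 2.49 ± 0.14, LOC771069 by 2.43 ± 0.17, and SMAD3, a transducer of TGF-beta signals, by 2.38 ± 0.21. Adjusted p ran from 0.00458 for MDK to 1.43e-09 for FAM89A, and SMAD3 lay near background in DT40. The other probe sets of RGCC and SMAD3 also passed, at only 0.89 and 0.45. CMYA5, a gene known from muscle, was higher by 3.71 ± 0.30, but its other probe set differed by only 0.01.

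**Figure D1:**
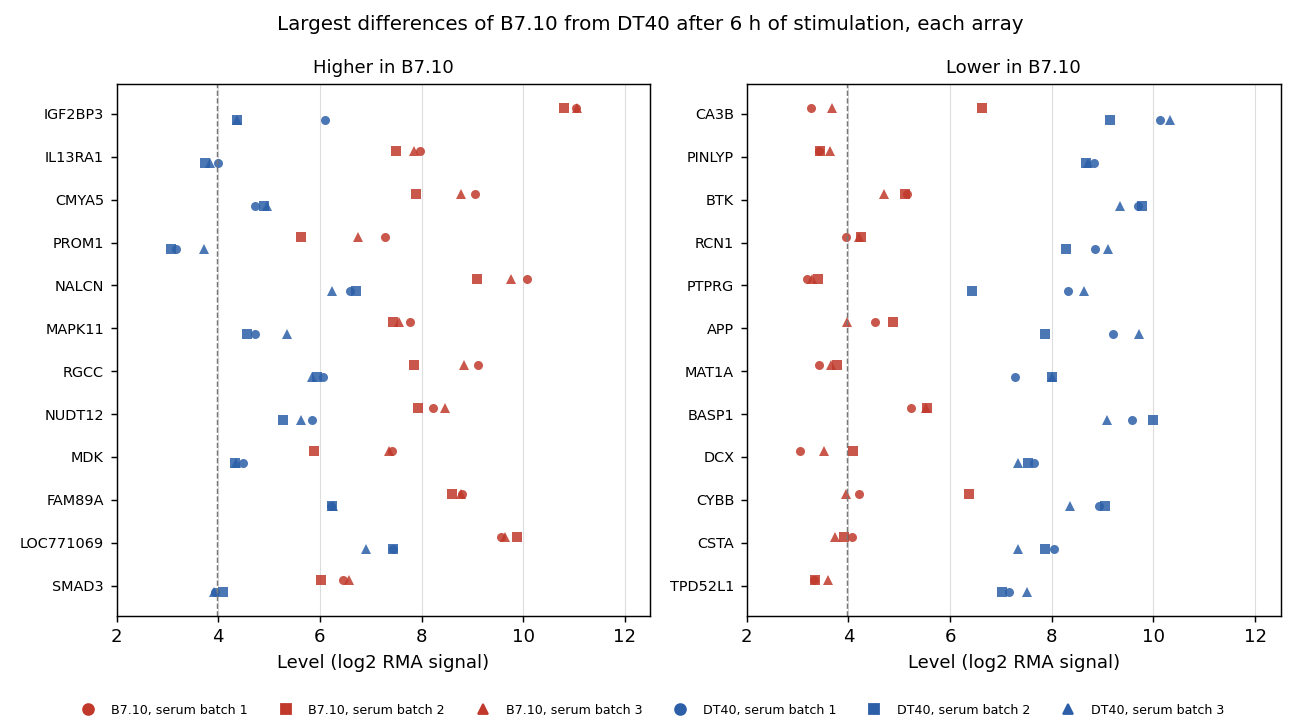
Level of the 12 genes with the largest higher and the 12 with the largest lower difference in B7.10 at 6 h with stimulation, in log2 RMA signal on the horizontal axis, with 1 point for each array (red for B7.10, blue for DT40, and the shape giving the serum batch). The dashed line marks 3.98 log2, and no gene has overlapping lines, though the B7.10 array of batch 2 stands nearest to DT40 for CA3B at 6.62 and CYBB at 6.38.

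The largest lower difference in B7.10 was that of CA3B. CA3B, a carbonic anhydrase, read 3.26, 6.62 and 3.67 log2 in B7.10, against 10.12, 9.14 and 10.33 in DT40. The lines did not overlap, but the size depended on the batch, with pair differences of -6.87, -2.52 and -6.65 in batches 1, 2 and 3. The fitted difference was -5.35 ± 0.87 log2 (SE; limma adjusted p = 0.000557), and -6.61 without both disputed arrays. PINLYP, a relative of phospholipase A2 inhibitors, read 3.42, 3.44 and 3.64 in B7.10, all near background, against 8.84, 8.67 and 8.71 in DT40. Its difference of -5.24 ± 0.11 (adjusted p = 5.94e-16) had the smallest standard error among the 12 largest higher and 12 largest lower differences and is a lower bound in size.

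RCN1, a calcium-binding protein of the endoplasmic reticulum, read 3.96, 4.24 and 4.21 log2 in B7.10, against 8.85, 8.29 and 9.10 in DT40. The receptor phosphatase PTPRG read 3.18, 3.40 and 3.28 in B7.10, against 8.32, 6.42 and 8.64 in DT40. APP, the amyloid precursor protein, read 4.51, 4.88 and 3.96 in B7.10, against 9.21, 7.87 and 9.72 in DT40. For PTPRG and APP the DT40 array of batch 2 was the lowest of its line, and the pair differences were -5.15, -3.02 and -5.36 for PTPRG and -4.69, -2.99 and -5.76 for APP in batches 1, 2 and 3. PTPRG lay near background in B7.10, so its difference is a lower bound in size. The fitted differences were -4.61 ± 0.22 for RCN1 (adjusted p = 1.07e-10), -4.51 ± 0.57 for PTPRG (adjusted p = 4.01e-05) and -4.48 ± 0.48 for APP (adjusted p = 5.34e-06).

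MAT1A, which makes S-adenosylmethionine, was lower in B7.10 by 4.14 ± 0.21 log2, with 3.42, 3.77 and 3.65 in B7.10 and 7.27, 7.999 and 7.996 in DT40. DCX, a microtubule-binding protein known from neurons, read 3.05, 4.08 and 3.51 in B7.10, against 7.66, 7.53 and 7.33 in DT40, a difference of -3.96 ± 0.21. Both were separated by more than 3 log2 in every serum batch on these probe sets. Other probe sets of DCX passed at only -0.99, -1.14 and -0.93, and a further one differed by -0.02. CYBB, the catalytic subunit of the phagocyte NADPH oxidase, read 4.20, 6.38 and 3.95 in B7.10, against 8.93, 9.04 and 8.35 in DT40, and differed by -3.93 ± 0.62 (adjusted p = 0.000429), or by -4.57 without both disputed arrays. The protease inhibitor CSTA was lower by 3.84 ± 0.22 and TPD52L1, of the tumour protein D52 family, by 3.81 ± 0.16. The other probe set of TPD52L1 passed at -0.87. MAT1A, DCX, CSTA and TPD52L1 averaged near background in B7.10, so their differences are lower bounds in size.

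The batches did not weigh alike on these sizes. Over the 96 genes at least 2-fold higher, the median pair difference was 1.65, 1.07 and 1.61 log2 in serum batches 1, 2 and 3. Over the 186 genes at least 2-fold lower it was -1.64, -1.44 and -1.71. The smallest medians thus belonged to batch 2, whose B7.10 array is the one described as batch 6. The values in which the calls were made are the same ones, so these medians describe the called genes and test nothing. Of the 12 largest higher and 12 largest lower differences, CA3B and CYBB lost their call without all arrays of batch 1, MDK lost it without all of batch 1 or all of batch 3, and the other 21 kept it in all 9 fits that left out 1 stimulated array or 1 batch.

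Genes that act at the receptor differed in both directions. Of 42 measured genes of the receptor complex and its first kinases and adaptors, 3 were higher in B7.10 and 4 lower (16.7%, against 7.89% of all genes), with a median difference of 0.03 log2. BTK, the gene knocked out, is among the 4 lower and is counted in that share. LYN, the SRC-family kinase that starts the signal, read 11.16, 10.64 and 10.86 in B7.10, against 10.10, 10.24 and 10.09 in DT40. FYN, a kinase of the same family, read 7.28, 6.40 and 7.09 in B7.10, against 10.13, 10.24 and 9.52 in DT40. The SRC-family kinases thus lay apart in opposite directions with no overlap, LYN by 0.74 ± 0.14 (SE; limma adjusted p = 0.00196) and FYN by -3.04 ± 0.33 (adjusted p = 6.09e-06). A second probe set of FYN differed by -2.91. HVCN1, a proton channel that associates with the receptor, was higher by 1.12 ± 0.16, and the adaptor BANK1, which links LYN to calcium release, by 0.85 ± 0.18. SH3BP5, which binds BTK and restrains it, was lower by 0.61 ± 0.09. The remaining lower gene, PAG1, an adaptor that recruits the inhibitory kinase CSK, was named after its values were seen and differed by -1.34 ± 0.21. Without both disputed arrays the list held 3 higher and 4 lower genes, and the call of BANK1 was lost (adjusted p = 0.085), as it was without the DT40 array of batch 1 alone (adjusted p = 0.0523).

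Isoforms of protein kinase C also lay apart in both directions. Of 42 measured genes of phospholipase C gamma, protein kinase C, calcium and NFAT, 6 were higher and 4 lower (23.8%), with a median of 0.03 log2. PRKCB, the isoform that carries the receptor signal to NF-kB in B cells, read 8.93, 8.73 and 9.02 in B7.10, against 7.06, 7.39 and 7.05 in DT40. PRKCE, an isoform that needs no calcium, read 3.30, 3.03 and 3.25 in B7.10, all near background, against 6.55, 5.47 and 6.76 in DT40. The arrays of the lines did not overlap for either isoform, and the differences were 1.73 ± 0.15 for PRKCB (SE; limma adjusted p = 2.39e-07) and -3.07 ± 0.29 for PRKCE (adjusted p = 8.48e-07), the second a lower bound in size. Of the 4 other probe sets of PRKCB, 3 also passed, at 1.43, 1.56 and 1.61, and both others of PRKCE passed at -1.21 and -0.51. CAMKK2, a calcium- and calmodulin-dependent kinase, was higher by 2.36 ± 0.19, with 7.83, 7.44 and 7.88 in B7.10 and 5.11, 5.83 and 5.14 in DT40. The other probe set of CAMKK2, near background, differed by 0.09.

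PRKCA was higher by 0.74 ± 0.17 log2 on 1 of its 7 probe sets, and the difference was 0.48 without the DT40 array of batch 2. PRKCD was lower by 0.70 ± 0.19 and the RAS exchange factor RASGRP3, which is activated by diacylglycerol, by 0.66 ± 0.19, with adjusted p of 0.0423 and 0.0459. PRKCD, RASGRP3 and PRKCA lost their calls without both disputed arrays (adjusted p = 0.64, 0.67 and 0.24), and the list then held 5 higher and 1 lower genes. Without the B7.10 array of batch 3 alone it held 3 higher and 1 lower, and PRKCA lost its call. PRKCD and RASGRP3 each lost theirs in 4 of the 6 fits that left out 1 stimulated array.

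The NF-kB and PI3K routes held few calls, though their shares were not below the 7.89% of all genes. Of 26 measured NF-kB genes 2 were higher and 1 lower (11.5%), with a median of -0.13 log2 against -0.0034 over all genes. NFKBIZ, a nuclear regulator of NF-kB, read 7.73, 7.43 and 7.74 in B7.10, against 6.63, 6.72 and 6.42 in DT40, a difference of 1.04 ± 0.12 (SE; limma adjusted p = 1.54e-05). The adaptor TRAF5 was higher by 0.52 ± 0.13, and the subunit gene NFKB1 lower by 0.52 ± 0.14 (adjusted p = 0.0387), which lost its call without both disputed arrays (-0.30, adjusted p = 0.64). With 1 stimulated array left out, the call of NFKB1 was lost in 5 of 6 fits and that of TRAF5 in 4 of 6. Of 36 measured genes of PI3K, AKT, mTOR and FOXO 1 was higher and 2 were lower (8.33%). PIK3CB, a catalytic PI3K subunit, read 4.87, 5.12 and 4.91 in B7.10, against 6.56, 6.44 and 6.03 in DT40. It was lower by 1.38 ± 0.16, and both other probe sets passed too, at -1.27 and -1.05. The transcription factor genes of the FOXO family, which PI3K signals hold in check, lay in opposite directions, FOXO1 by 0.45 ± 0.13 (adjusted p = 0.0471) and FOXO3 by -1.36 ± 0.27 (adjusted p = 0.00317). The call of FOXO1 was lost in 5 of the 6 fits without 1 stimulated array, and neither FOXO gene passed without both disputed arrays (adjusted p = 0.103 for FOXO1 and 0.105 for FOXO3).

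The feedback inhibitors DUSP5, SPRED2 and DUSP6 of the RAS and MAP kinase route were lower in B7.10. Of 48 measured genes of that route 2 were higher and 7 lower (18.8%), with a median of -0.05 log2. DUSP5, a phosphatase that inactivates ERK in the nucleus, read 3.92, 4.04 and 3.96 in B7.10, against 5.47, 5.61 and 5.45 in DT40. SPRED2, which blocks activation of RAF, read 3.69, 4.38 and 3.56 in B7.10, against 5.40, 5.23 and 5.38 in DT40. Both averaged near background in B7.10 and lay above it in DT40, with differences of -1.54 ± 0.16 (SE; limma adjusted p = 3.87e-06) and -1.46 ± 0.21 (adjusted p = 0.000138). Another probe set of DUSP5 differed by -0.36 and another of SPRED2 by -0.25. Neither passed, and both lay near background in both lines. After 2 h of stimulation, in 1 array a line, DUSP5 read 4.51 in B7.10 and 9.27 in DT40. DUSP6, a phosphatase of ERK in the cytoplasm, was named after its values were seen. It read 2.98, 2.94 and 2.89 in B7.10, against 5.08, 5.74 and 4.12 in DT40, a difference of -2.04 ± 0.46 (adjusted p = 0.00943), a lower bound in size since B7.10 lay near background. These genes were lower without stimulation too. At 6 h and 24 h the differences were -0.87 and -1.41 for DUSP5, -1.34 and -1.47 for SPRED2, and -2.41 and -2.63 for DUSP6. The JNK-type kinase MAPK9 was lower by 0.45 ± 0.10, whereas the RAS exchange factor SOS1 was higher by 0.52 ± 0.12 and MAPK11 by 2.71. Other probe sets of SOS1 differed by 0.13, 0.32 and 0.02, and none of these passed. Without both disputed arrays the list held 2 higher and 2 lower genes, and DUSP6, MAPK9 and SOS1 lost their calls (adjusted p = 0.188, 0.243 and 0.0854). SOS1 also lost its call without the batch 1 array of either line.

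In the list of immediate-early and activation genes, 29 of 47 lay below 0 (61.7%, against 51.0% of all genes). Of these 47 measured genes 2 were called higher in B7.10 and 9 lower (23.4%), with a median of -0.09 log2. KLF2, a factor of lymphocyte quiescence and homing, read 6.75, 6.83 and 6.44 in B7.10, against 7.49, 7.88 and 7.31 in DT40. KLF6 read 7.59, 7.55 and 7.50 in B7.10, against 8.44, 8.17 and 8.52 in DT40. The differences were -0.88 ± 0.16 for KLF2 and -0.83 ± 0.15 for KLF6, and the repressor BHLHE40 differed by -0.75 ± 0.13 on 1 of its 4 probe sets. The chemokine receptor CXCR4 was higher by 0.60 ± 0.17 (adjusted p = 0.0458) and HIVEP1, a factor that binds NF-kB sites, by 0.49 ± 0.13. CD83, an activation marker of the B-cell surface, was named after its values were seen. It read 3.13, 3.15 and 3.08 in B7.10, against 4.12, 5.41 and 3.54 in DT40, a difference of -1.24 ± 0.28, a lower bound in size since B7.10 lay near background, and at 2 h with stimulation it read 3.27 in B7.10 and 8.84 in DT40. Nothing in this list passed without both disputed arrays (0 of 47, and adjusted p = 0.077 for KLF2, 0.093 for KLF6 and 0.14 for CXCR4), while leaving out the B7.10 array of batch 2 alone left 1 higher and 9 lower, and that of batch 3 alone 0 higher and 6 lower. The call of CXCR4 was lost in each of the 6 fits without 1 stimulated array and that of HIVEP1 in 4 of 6.

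**Figure D2:**
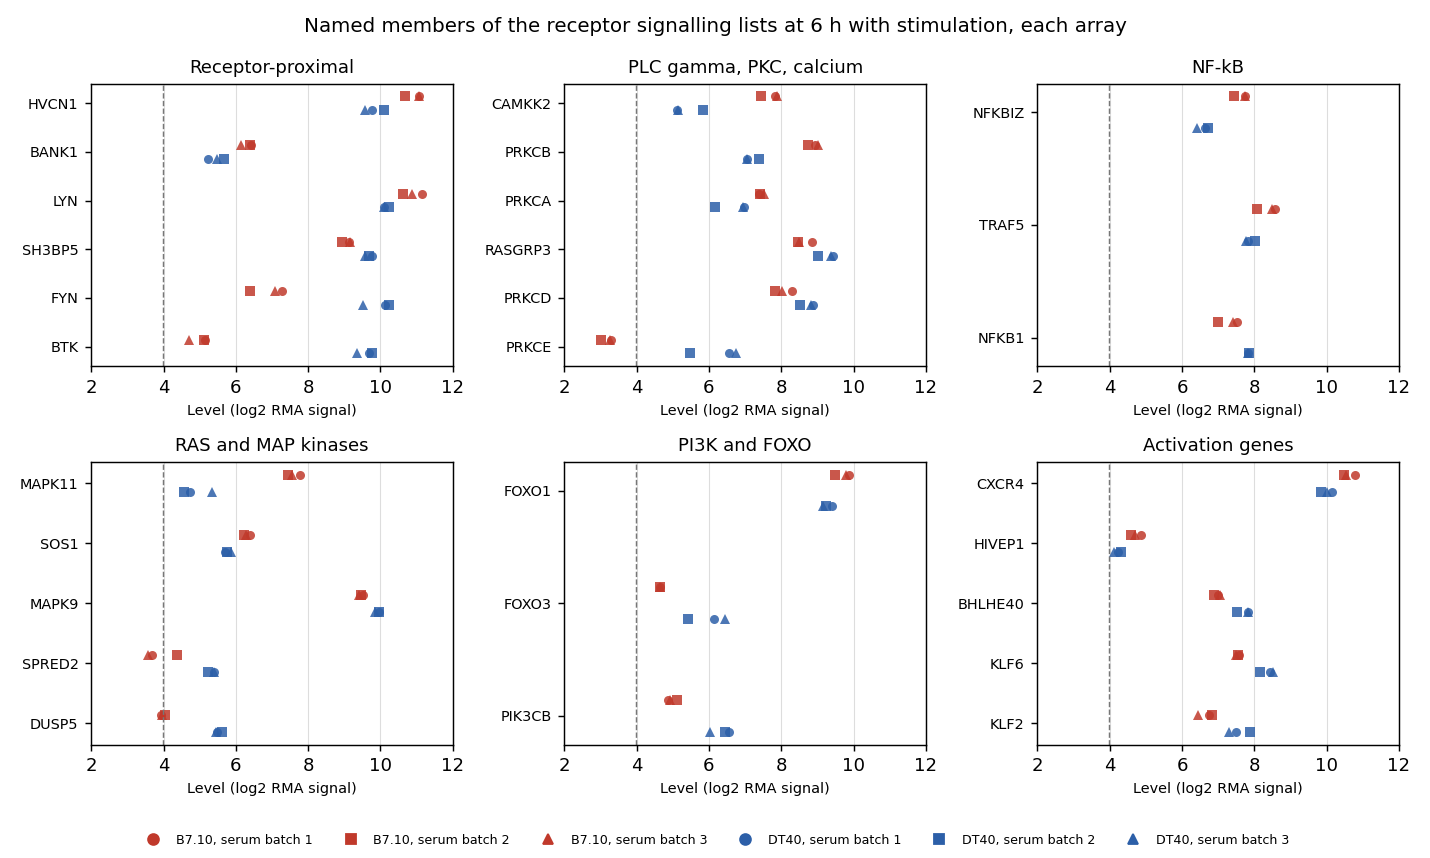
Level of the genes named from the 6 lists of receptor signalling at 6 h with stimulation, in log2 RMA signal on the horizontal axis, with 1 point for each array (red for B7.10, blue for DT40, and the shape giving the serum batch). FYN and PRKCE lie about 3 log2 lower in B7.10 and PRKCB 1.73 higher, whereas most activation genes lie within 1 log2.

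The difference between the lines was largely the one present without stimulation. Of the 1026 called genes 1020 had the same direction at 6 h without stimulation and 988 at 24 h. The unstimulated levels come from other arrays, but all differences were tested in 1 fit with 1 estimate of the spread, so the calls are not independent. In the unstimulated arrays 679 of the genes also passed at 6 h and 552 at 24 h, beside 965 (7.42%) and 902 (6.93%) of all genes at those times. In neither did 282 pass, and 0 passed in the opposite direction. The median size was 0.69 log2 with stimulation, and in the same direction 0.59 at 6 h and 0.51 at 24 h without it. Since the genes were chosen by their stimulated difference, that median is the one raised by the choice.

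The difference of B7.10 from DT40 at 6 h with stimulation, minus its mean without stimulation at 6 h and 24 h, was tested directly. Of 38382 probe sets 5 passed (0.013%), all lower. An unadjusted p under 0.05 was found for 1758, below the number that threshold would give if nothing differed. By gene 4 of 13009 passed (0.0307%): BASP1, IL18, MME and GRAPL. Against the unstimulated 6 h arrays alone, 1 of the 5 probe sets passed. BASP1, a membrane-bound protein known from neurons, read 5.24, 5.55 and 5.53 log2 in stimulated B7.10, against 9.58, 10.0002 and 9.10 in stimulated DT40. Without stimulation the means were 5.36 in B7.10 and 7.28 in DT40 at 6 h, and 5.87 in B7.10 and 7.43 in DT40 at 24 h. B7.10 thus stood near the same level throughout, and DT40 was higher with stimulation. The difference was -4.12 ± 0.20 with stimulation and -1.91 and -1.56 without at 6 h and 24 h, which made the contrast -2.39 ± 0.25 (SE; limma adjusted p = 0.00052). A second probe set gave -1.86 (adjusted p = 0.0401).

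IL18, an inflammatory cytokine, read 4.42, 4.30 and 4.04 log2 in stimulated B7.10, against 7.79, 8.31 and 6.70 in stimulated DT40. The DT40 arrays spread over more than 1 log2, with batch 3 lowest, and none came near the B7.10 arrays. The difference was -3.34 ± 0.30 with stimulation, and -1.56 and -0.47 without at 6 h and 24 h. MME, a surface metalloprotease also known as CD10, read 5.18, 4.88 and 5.17 in stimulated B7.10, against 8.09, 7.95 and 7.37 in stimulated DT40. It differed by -2.73 ± 0.19 with stimulation, and by -1.09 and -1.36 without. The contrasts were -2.33 for IL18 and -1.51 for MME, both at adjusted p = 0.0401. The other probe set of IL18 gave a contrast of -1.21 (limma adjusted p = 0.57). Those of MME gave -0.77 and -0.75 (adjusted p = 0.28 and 0.63). None of these passed, and all averaged near background in B7.10. GRAPL, an adaptor related to GRB2, turned round on its brighter probe set. It was higher in B7.10 without stimulation, by 0.77 at 6 h and 0.91 at 24 h, and read 8.19, 8.24 and 8.18 in stimulated B7.10, against 8.62, 9.01 and 8.34 in stimulated DT40. The stimulated difference of -0.46 ± 0.15 did not pass (adjusted p = 0.0962) and passed with serum batch as a block (adjusted p = 0.0309). The contrast was -1.30 ± 0.18 (adjusted p = 0.0238). A second probe set of GRAPL differed by -0.03 with stimulation, and its contrast of -0.06 did not pass.

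Apart from that of the brighter BASP1 probe set, these contrast calls were lost in most fits that left out 1 stimulated array. With serum batch as a block 9 probe sets passed, adding MERTK, ILDR2 and 2 probe sets without a gene symbol. Without all arrays of batch 1 or of batch 2 it was 0 probe sets, without all of batch 3 it was 8, and without the DT40 array of batch 3 it was 15. The brighter probe set of BASP1 passed in 14 of 16 other settings, GRAPL in 7, MME in 6, and IL18 and the second probe set of BASP1 in 5 each. All stayed negative in every setting. It was 1 probe set without both disputed arrays.

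Seen gene by gene, the stimulated difference was set against the mean of the unstimulated differences at 6 h and 24 h. For 12 of the 1026 called genes that mean had the opposite sign. Among the rest, 9 differed by at least 1 log2 more with stimulation than that mean, and 0 by at least 1 log2 less. The 6 with the largest gaps were BASP1, IL18, MME, K123, FYN and CYBB. K123 read 3.52, 3.71 and 3.49 in stimulated B7.10, near background, against 6.09, 6.51 and 4.50 in stimulated DT40. It differed by -2.13 ± 0.30 with stimulation and by -0.12 and -0.03 without at 6 h and 24 h, and the contrast of -2.06 did not pass (adjusted p = 0.138). FYN differed by -1.63 and -1.61 without stimulation (contrast -1.42, adjusted p = 0.93) and CYBB by -2.91 and -2.63. The 6 largest gaps among genes of opposite sign were small differences: EXOC3L, MATK and LAMA3 were lower with stimulation by 0.61, 0.54 and 0.52, and LATS1, SLC24A5 and TMCO3 higher by 0.61, 0.45 and 0.43, while without stimulation none of the 6 passed at either time. LAMA3 lay near background in both lines, and each of these 6 genes lost its call in 3 to 5 of the 6 fits without 1 stimulated array. The contrast passed for none of these genes besides BASP1, IL18 and MME.

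**Figure D3:**
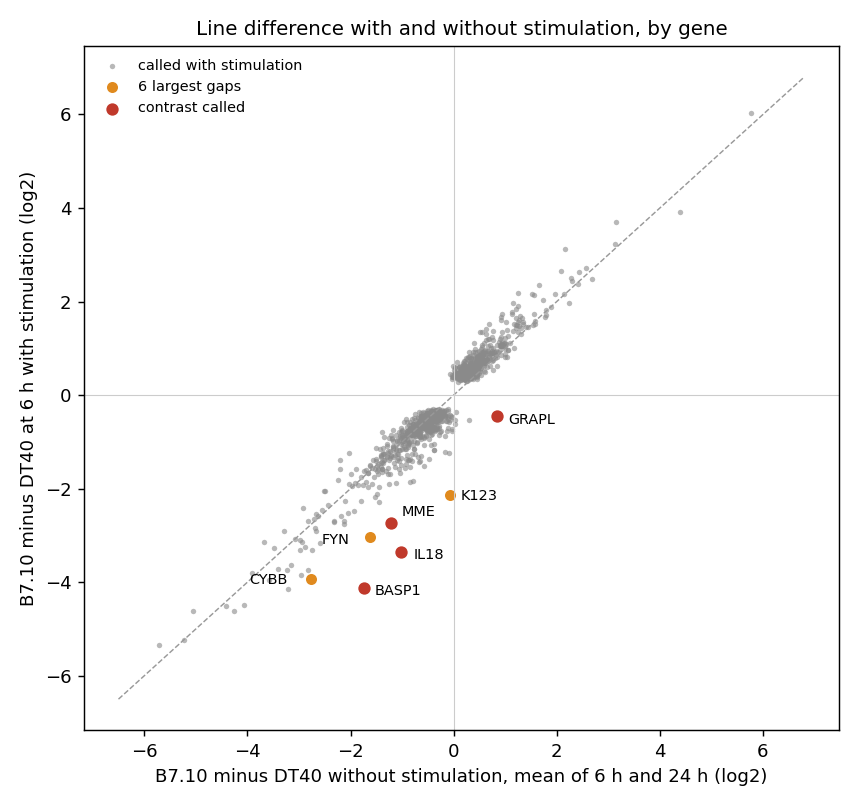
Difference of B7.10 from DT40 in log2, with stimulation at 6 h on the vertical axis and as the mean of 6 h and 24 h without stimulation on the horizontal axis, for the 1026 genes called with stimulation and GRAPL. The dashed line marks equal differences, red points mark the 4 genes whose contrast passed and orange points K123, FYN and CYBB, all of which lie below the line.

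A list of 8 genes was named in earlier work on these arrays as raised by stimulation in DT40. It was chosen on the same samples, and the stimulated DT40 arrays are also a side of this comparison. The share and directions of its members are therefore a description and test nothing. Of the 8, 7 were called lower in stimulated B7.10 (87.5%, against 4.45% of all genes called lower). The median was -2.43 log2, and all 8 lay below 0 in every serum batch. Besides BASP1, IL18, MME, K123 and GRAPL it holds LGALS1A, a galactose-binding lectin, which read 4.73, 4.76 and 4.51 in B7.10, against 8.31, 8.93 and 8.01 in DT40. The other members PI15, a secreted protease inhibitor, and HAVCR1, a surface receptor for phosphatidylserine, differed by -1.87 ± 0.16 and -1.21 ± 0.18, the first a lower bound in size.

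Among the 24 gene lists plotted by share, the B-lineage transcription factors held the largest share of higher genes, a rank that did not hold without both disputed arrays, where the list of phospholipase C, protein kinase C and calcium held more with 5 of 42. Of 40 measured genes 9 were higher in B7.10 and 5 lower (35.0%), with a median of 0.12 log2. IKZF3 (Aiolos), a zinc-finger factor of lymphocyte maturation, read 9.07, 8.80 and 9.11 in B7.10, against 7.87, 7.85 and 7.67 in DT40. BCL11A, a repressor needed for B-cell development, read 10.67, 10.45 and 10.69 in B7.10, against 9.75, 9.54 and 9.62 in DT40. The lines lay about 1 log2 apart for both, at 1.19 ± 0.13 for IKZF3 (SE; limma adjusted p = 9.32e-06) and 0.96 ± 0.14 for BCL11A, whose 3 other probe sets passed too. The other probe set of IKZF3 differed by 0.53 and did not pass (limma adjusted p = 0.0693). POU2F1 (OCT1) was higher by 0.64 ± 0.11 and its coactivator POU2AF1 by 0.61, the second named after its values were seen. LMO2, a bridging factor of early blood cells and germinal centres, read 4.15, 4.33 and 4.25 in B7.10, against 7.60, 7.25 and 7.64 in DT40, a difference of -3.26 ± 0.15 (adjusted p = 5.91e-11). The other probe set of LMO2 passed at -1.40. The haem-regulated repressor BACH1 was lower by 1.89 ± 0.22 and TOX by 1.39 ± 0.20. The list held 3 higher and 3 lower genes without both disputed arrays, and POU2F1 missed at adjusted p = 0.0534.

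The surface and plasma-cell lists held few called genes, though their shares lay above the 7.89% of all genes. Of 38 measured genes of antigen presentation and the B-cell surface 4 were higher and 1 lower (13.2%), with a median of 0.00. The chemokine receptor CCR6 read 4.15, 5.00 and 4.76 in B7.10, against 2.98, 2.78 and 3.01 in DT40, near background, a difference of 1.71 ± 0.25 that missed without both disputed arrays (adjusted p = 0.075). CCR9, the receptor for a gut chemokine, was higher by 1.17 ± 0.16 and the inhibitory ligand CD200 by 0.97 ± 0.16, while the hyaluronan receptor CD44 was lower by 1.26 ± 0.16, with 8.39, 8.27 and 7.86 in B7.10 and 9.50, 9.49 and 9.31 in DT40. Of 13 plasma-cell genes 0 were higher and 3 lower (23.1%). IRF4, which drives plasma-cell differentiation, read 9.84, 9.63 and 9.80 in B7.10, against 10.42, 10.96 and 10.24 in DT40, and ELL2, an elongation factor of immunoglobulin secretion, was lower by 1.17 ± 0.16 on 1 of its 4 probe sets. IRF4 differed by -0.78 ± 0.16, by -0.51 without all arrays of batch 2, and TXNDC5, a protein disulphide isomerase, by -0.38 ± 0.09. The call of TXNDC5 was lost without the batch 2 array of either line. IRF4 and TXNDC5 lost their calls without both disputed arrays (adjusted p = 0.17 and 0.26), which left 1 of the 3.

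DNA replication genes lay mostly above 0 by small amounts. Of 55 measured genes 6 were higher in B7.10 and 0 lower (10.9%), and 41 lay above 0 (74.5%, against 49.0% of all genes). Their median was 0.13 log2, and it was 0.14, 0.15 and 0.18 in serum batches 1, 2 and 3. Without stimulation 1 was higher and 1 lower at each time. UHRF1, which maintains DNA methylation behind the fork, read 10.10, 9.89 and 9.94 in B7.10, against 9.52, 9.54 and 9.48 in DT40. TK1, thymidine kinase, read 11.07, 11.11 and 11.07 in B7.10, against 10.62, 10.76 and 10.55 in DT40, and the clamp loader subunit RFC5 was higher by 0.43 ± 0.09. These genes did not overlap between the lines, with 0.46 ± 0.10 for UHRF1 (SE; limma adjusted p = 0.00674) and 0.44 ± 0.10 for TK1 (adjusted p = 0.00928). Of the 55, 1 passed without both disputed arrays, and with serum batch as a block it was 10, beside 9.85% of all genes called with the block. UHRF1 missed without the B7.10 array of batch 1 (adjusted p = 0.0529) and TK1 without the DT40 array of batch 3 (adjusted p = 0.0601).

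Of 49 mitosis genes 2 were higher and 0 lower (4.08%, against 7.89% of all genes). The spindle motor KIF15 was higher by 0.53 ± 0.09 and the topoisomerase TOP2A by 0.40 ± 0.11. The other probe sets of KIF15 differed by 0.03 to 0.50 and did not pass. Of 47 DNA repair genes 3 were higher and 1 lower (8.51%), a share near that of all genes. BRCA2, which acts in the repair of broken DNA, read 8.52, 8.05 and 8.45 in B7.10, against 7.40, 7.35 and 7.29 in DT40, and RAD54B, a DNA repair helicase, read 10.15, 9.80 and 10.02 in B7.10, against 8.96, 9.02 and 8.96 in DT40. Both were about 1 log2 higher, BRCA2 by 0.99 ± 0.12 (SE; limma adjusted p = 2.19e-05) and RAD54B by 1.01 ± 0.13 (adjusted p = 4.8e-05), and both passed without the disputed arrays. BRCA1 was higher by 0.39 ± 0.11 and RAD50 lower by 0.48 ± 0.11, and these calls were lost without the disputed arrays (adjusted p = 0.41 and 0.19), as was that of TOP2A (adjusted p = 0.288). With 1 stimulated array left out, BRCA1 missed in all 6 fits, TOP2A in 5, and RAD50 without the B7.10 array of batch 2. Of 51 genes of the MYC family and ribosome biogenesis 2 were higher and 1 lower (5.88%), a share below that of all genes. MXD3 and MXD4, which oppose MYC, were higher by 0.91 ± 0.10 and 0.79 ± 0.17, and the polymerase subunit POLR1C was lower by 0.48 ± 0.09. The list held 2 higher and 0 lower without both disputed arrays, with POLR1C at adjusted p = 0.0539.

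Survival genes split evenly. Of 44 measured genes of the BCL2 family, caspases and p53 response 5 were higher and 5 lower (22.7%), with a median of -0.01. GADD45A, a stress gene of growth arrest, read 10.32, 10.25 and 10.16 in B7.10, against 9.12, 9.21 and 8.73 in DT40, a difference of 1.22 ± 0.12 (SE; limma adjusted p = 1.29e-06). Its relative GADD45G was lower by 0.76 ± 0.16. The death effector BAK1 was higher by 0.61 ± 0.10 and BIK, a sensor of the same family, by 0.42 ± 0.10. BMF, another such sensor near background in B7.10, was lower by 0.87 ± 0.15 and TIGAR, a p53 target that restrains glycolysis, by 0.66 ± 0.12. BCL2 itself, named after its values were seen, read 6.03, 6.28 and 6.18 in B7.10, against 7.59, 7.67 and 6.93 in DT40, a difference of -1.23 ± 0.26 (adjusted p = 0.00616). Without both disputed arrays 3 were higher and 2 lower, and BIK, TIGAR and BCL2 lost their calls (adjusted p = 0.149, 0.141 and 0.0887). The call of BIK was also lost in 4 of the 6 fits without 1 stimulated array.

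Genes of the endoplasmic reticulum lay mostly below 0, by small amounts. Of 49 measured genes of the endoplasmic reticulum 1 was higher and 4 lower (10.2%), and 42 lay below 0 (85.7%, against 51.0% of all genes), with a median of -0.12 log2. Apart from RCN1 the called members moved little, with the degradation factor HERPUD1 at -0.51 ± 0.12, the translocon-associated SSR2 at -0.32 ± 0.08, and the oxidase ERO1A at 0.53 ± 0.11. The other probe set of ERO1A differed by -0.01. With 1 stimulated array left out, SSR2 missed in all 6 fits, HERPUD1 in 2, and ERO1A without the B7.10 array of batch 1. In the ATF4 list of amino-acid genes, with 36 measured, 0 were higher and 4 lower (11.1%), with a median of -0.14. PSAT1, an enzyme of serine synthesis, read 6.38, 6.63 and 5.97 in B7.10, against 8.09, 7.34 and 8.46 in DT40, and the cystine transporter SLC7A11 read 6.03, 6.39 and 5.74 in B7.10, against 7.44, 7.40 and 7.55 in DT40. They differed by -1.63 ± 0.29 (SE; limma adjusted p = 0.00133) and -1.41 ± 0.16 (adjusted p = 1.39e-05). ALDH1L2, a mitochondrial folate enzyme, differed by -1.25 ± 0.34 (adjusted p = 0.0347), a lower bound in size since B7.10 lay near background, and its DT40 arrays read 5.08, 3.66 and 5.16, with that of batch 2 near background. Its call was lost in 5 of the 6 fits without 1 stimulated array.

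Of 42 genes of glycolysis and oxygen sensing, a list that also holds carbonic anhydrases, 2 were higher and 6 lower (19.0%). In it 59.5% lay below 0, against 51.0% of all genes. The 6 lower include the carbonic anhydrases CA3B, CA2 and CA13, so the share is not one of glycolysis alone. The glycolytic enzymes called lower, ENO2 at -0.68 and PFKP at -0.38, were named after their values were seen. The lower genes also included EGLN1, the oxygen-sensing hydroxylase that marks HIF for degradation. It read 8.38, 8.85 and 8.37 in B7.10, against 10.14, 10.09 and 10.19 in DT40. EGLN1 was lower by 1.61 ± 0.21 (SE; limma adjusted p = 6.44e-05) and the carbonic anhydrase CA2 by 0.94 ± 0.16, while hexokinase HK1 was higher by 0.44 ± 0.12 and the demethylase KDM3A by 0.48 ± 0.10. Of 36 fatty-acid genes 0 were higher and 6 lower (16.7%). PPARG, a receptor that turns on fat storage, was lower by 1.51 ± 0.19, near background in B7.10, the lipid droplet protein PLIN2 by 0.68 ± 0.13 and the elongase ELOVL6 by 0.63 ± 0.09. The other probe set of PLIN2 differed by -0.05. Another probe set of ELOVL6 passed at -0.42, and a further one differed by 0.06. Of 28 sterol genes 1 was higher and 1 lower (7.14%), a share near that of all genes. INSIG2, which retains the sterol sensor in the endoplasmic reticulum, differed by 0.81 ± 0.19 and the cholesterol carrier NPC2 by -0.45 ± 0.12. Without both disputed arrays the counts were 1 higher and 1 lower in the endoplasmic reticulum list, 0 and 1 for ATF4, 1 and 3 for glycolysis, 0 and 2 for fatty acids and 0 and 0 for sterols, with PSAT1 at adjusted p = 0.057, ALDH1L2 at 0.32, HK1 at 0.136 and PLIN2 at 0.168. With 1 stimulated array left out, HK1 and NPC2 each missed in 4 of 6 fits and INSIG2 in 2.

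Of 63 measured genes of adhesion and the cytoskeleton 5 were higher and 8 lower (20.6%). ITGA4, an integrin chain of lymphocyte homing, read 5.10, 5.24 and 4.98 in B7.10, against 3.13, 2.76 and 3.73 in DT40, near background. ITGAV, another integrin chain, read 5.59, 5.81 and 5.67 in B7.10, against 7.34, 6.69 and 7.22 in DT40. The integrin chains lay in opposite directions, ITGA4 by 1.90 ± 0.27 (SE; limma adjusted p = 0.000116) on 1 of its 3 probe sets and ITGAV by -1.39 ± 0.22 (adjusted p = 0.000398). The GTPase RAC2 was higher by 0.59 ± 0.11 and the tetraspanin CD151 by 0.50 ± 0.10. The actin-bundling protein LCP1, named after its values were seen, read 6.91, 4.95 and 6.53 in B7.10, against 9.71, 9.48 and 9.16 in DT40, a difference of -3.32 ± 0.53 (adjusted p = 0.000479) that missed without both disputed arrays (adjusted p = 0.063). RAC2 and CD151 missed without them too (adjusted p = 0.06 and 0.0884), and the list then held 2 higher and 5 lower.

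Of 58 measured genes of cytokine receptors, JAK-STAT and SOCS 3 were higher and 2 lower (8.62%), a share near that of all genes. SOCS1, an inhibitor of cytokine receptor kinases, read 8.27, 7.59 and 8.22 in B7.10, against 6.24, 6.52 and 5.99 in DT40, a difference of 1.77 ± 0.21 (SE; limma adjusted p = 1.86e-05). The death receptor TNFRSF21 was higher by 0.46 ± 0.12, and TNFRSF1A and IL10RB were lower by 0.87 ± 0.17 and 0.56 ± 0.15. With 1 stimulated array left out, IL10RB missed in 5 of 6 fits and TNFRSF21 in 4, and without both disputed arrays the list held 2 higher and 1 lower. Of 37 interferon genes 1 was lower, the receptor chain IFNGR2 by 0.51 ± 0.10 (2.70%), and of 35 cytosolic chaperone genes 1 was lower, the heat shock factor HSF3 by 0.48 ± 0.10 (2.86%), which missed without both disputed arrays (adjusted p = 0.0957). Of 48 genes of oxidative phosphorylation 0 passed, and the differences ran from -0.35 to 0.27 log2. An unadjusted limma p under 0.05 was found for 6 of the 48, beside 5542 of all 38382 probe sets. In that list NDUFA9 and UQCRB had the smallest p, at -0.32 and -0.22.

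**Figure D4:**
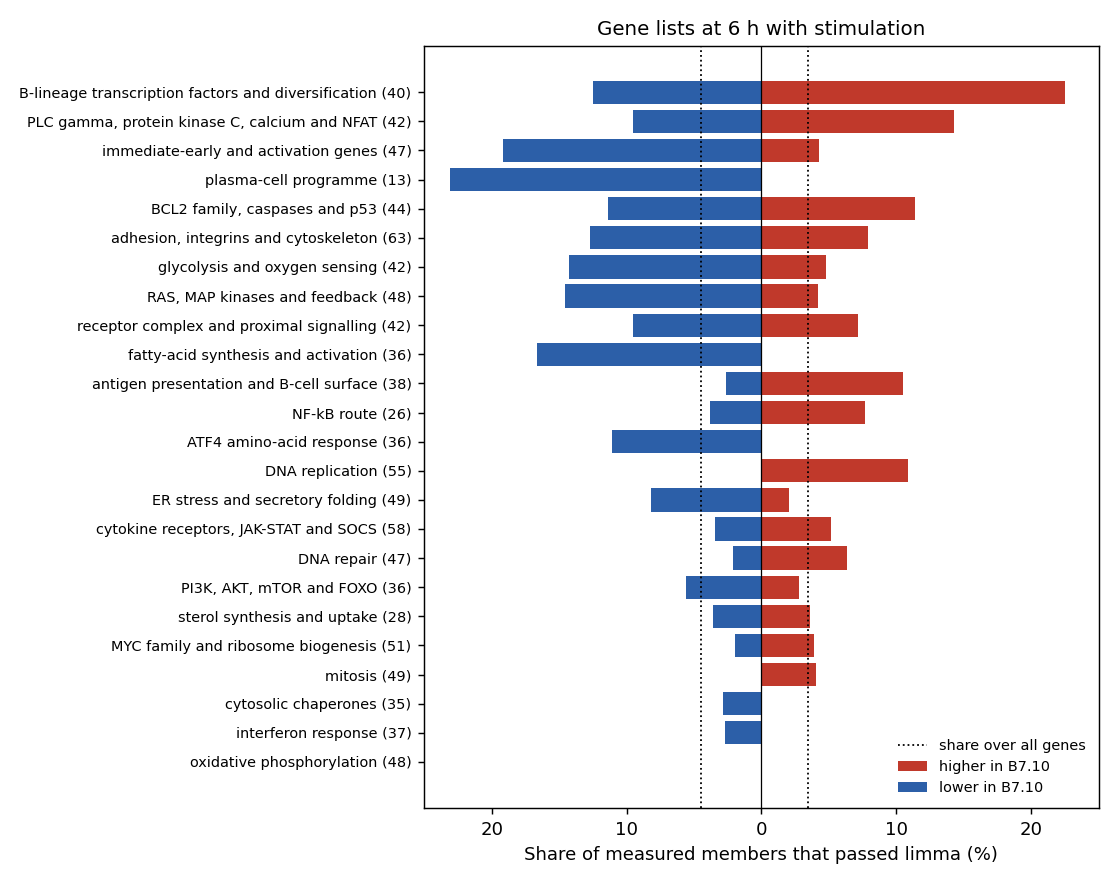
Share of the measured members of 24 gene lists, with the number measured in brackets, that passed limma at 6 h with stimulation, in percent on the horizontal axis, higher in B7.10 to the right and lower to the left. The dotted lines mark the shares over all genes (3.44% higher and 4.45% lower), and the longest bar to the right belongs to B-lineage transcription factors with 9 of 40.

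Where the lines made from the knockout stood was read from the 4 arrays of serum batch 1 at 6 h with stimulation. Probe sets were chosen on batches 2 and 3 alone, by an adjusted p under 0.05 and at least 2-fold, which gave 136 higher and 254 lower in B7.10. The B7.10 arrays of those batches are the 2 with disputed descriptions, so the choice of probe sets rests on them. All 390 kept their direction in batch 1. There is 1 array a line, so no test was made, and both lines share the B7.10 and DT40 arrays of that batch. Of the 136 higher probe sets B41-13 stood nearer to DT40 than to B7.10 for 79 (58.1%) and B46-5 for 76 (55.9%). Of the 254 lower ones B41-13 did so for 103 (40.6%) and B46-5 for 23 (9.06%). In the unstimulated and 2 h arrays of batch 1 the lower probe sets gave 28.0% to 34.6% for B41-13 and 10.6% to 11.8% for B46-5. The higher ones gave 58.1% to 59.6% for B41-13 and 52.9% to 54.4% for B46-5. The labels of the B46-5 array at 24 h also contradict each other.

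For BASP1, IL18, MME and FYN, B41-13 and B46-5 lay far apart. BASP1 read 10.92 log2 in B41-13, 6.10 in B46-5, 5.24 in B7.10 and 9.58 in DT40. IL18 read 9.71 in B41-13, 4.50 in B46-5, 4.42 in B7.10 and 7.79 in DT40, and MME read 7.44 in B41-13, 4.71 in B46-5, 5.18 in B7.10 and 8.09 in DT40. FYN read 10.21 in B41-13, 6.32 in B46-5, 7.28 in B7.10 and 10.13 in DT40. In each of these B41-13 lay near or above DT40, and B46-5 near or below B7.10 or within 1 log2 above it. DCX likewise read 7.55 in B41-13 and 5.09 in B46-5, between 3.05 in B7.10 and 7.66 in DT40. CA3B, the largest lower difference, read 8.25 in B41-13 and 3.26 in B46-5, against 3.26 in B7.10 and 10.12 in DT40.

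Some other large differences did not sort the lines this way. PINLYP read 4.56 in B41-13 and 3.37 in B46-5, against 3.42 in B7.10 and 8.84 in DT40, and RCN1 read 4.43 in B41-13 and 5.18 in B46-5, against 3.96 in B7.10 and 8.85 in DT40. IGF2BP3 read 10.95 in B41-13 and 10.43 in B46-5, close to 11.04 in B7.10 and far from 6.10 in DT40. CYBB read 8.34 in B41-13 and 7.54 in B46-5, close to 8.93 in DT40 and far from 4.20 in B7.10. RGCC read 6.78 in B41-13 and 4.34 in B46-5, against 9.12 in B7.10 and 6.05 in DT40, so that B46-5 lay below DT40. The chicken BTK probe set itself read 5.89 in B41-13 and 5.29 in B46-5, against 5.14 in B7.10 and 9.69 in DT40, and no source used here says whether it reads the human constructs. With the source names of both reconstituted arrays in dispute, these values go by title.

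**Figure D5:**
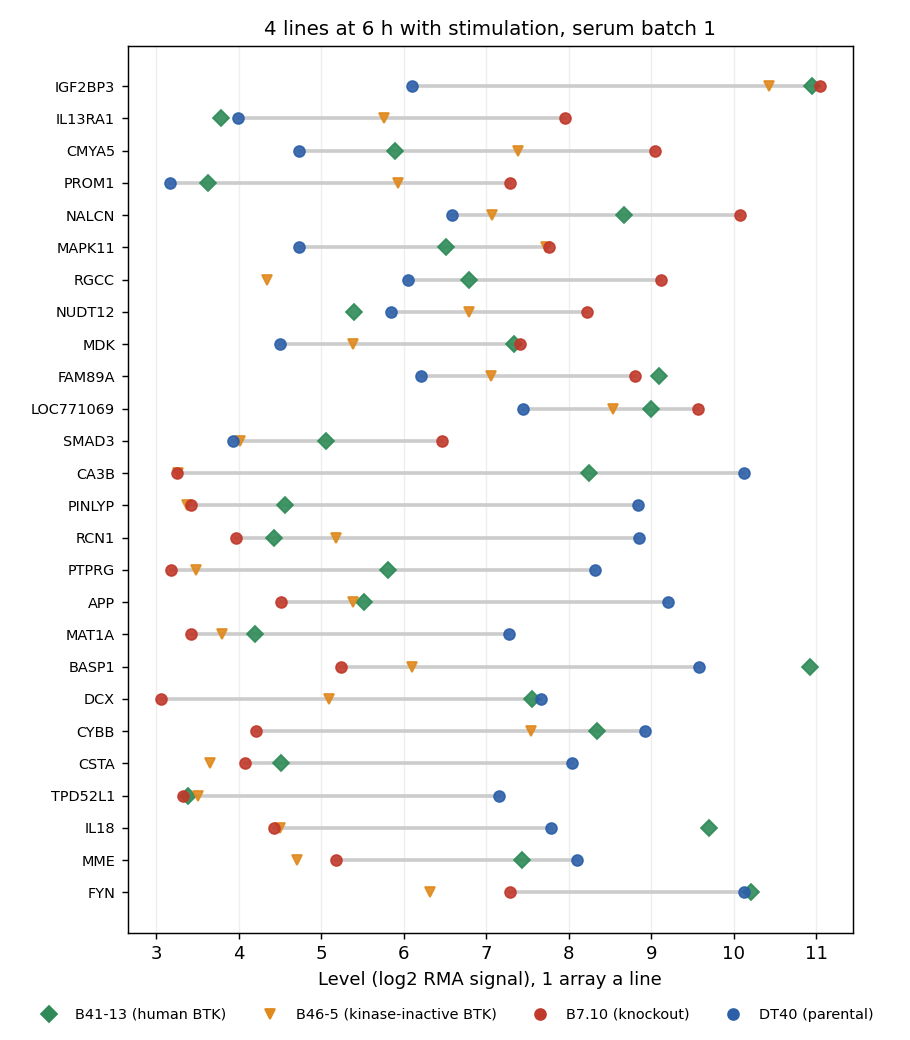
Level in log2 RMA signal on the horizontal axis of the genes with the largest differences other than BTK, and of IL18, MME and FYN, in the 4 arrays of serum batch 1 at 6 h with stimulation (green diamonds for B41-13, orange triangles for B46-5, red circles for B7.10, blue circles for DT40). Each grey bar joins B7.10 and DT40, and B41-13 lies beyond the DT40 end for BASP1 at 10.92 and IL18 at 9.71, with 1 array a line.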

How the data were processed

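Each of the 28 arrays was an Affymetrix chicken array, hybridised with biotinylated cRNA from a pool of 10 repeated experiments, per the labels' protocols. The values analysed are log2 signals deposited by the authors after RMA, per the submitters' processing notes. No source used here gives the RMA version or says whether all arrays were processed jointly. Array medians ran from 4.37 to 4.50 log2, and precision is limited by the number of arrays.

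Of 38535 probe sets 153 controls were left out and 38382 tested. The platform annotation gave 1 gene symbol to 27168 of these, several to 177 and none to 11037, and a gene was read by its brightest probe set over 28 arrays. Arrays were grouped by title. limma 3.58.1 in R 4.3.3 was fitted to the 18 arrays of both lines at 6 h and 24 h without stimulation and at 6 h with it, with Benjamini-Hochberg adjustment over all probe sets and a threshold of 0.05. Tables were joined with pandas 2.3.3 in Python 3.11.15 and plotted with matplotlib 3.10.9. P-values measure the spread between pools.

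The named genes are BTK, the 12 largest higher and 12 largest lower called genes of 1 direction in all batches, up to 3 called members each way of each list by smallest adjusted p (the 2 smallest where none passed), the genes whose contrast passed, and the 6 largest gaps of each kind between stimulated and unstimulated differences. Members, lists and rules were chosen with earlier results of these data known, and symbols were those of the array annotation.

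The labels describe the replicate number as a shared serum batch, so the numbers pair the arrays. Deviations from the group means correlated with a median of 0.122 between arrays of the same batch (45 pairs) and -0.0600 between arrays of different batches (90 pairs). Among the stimulated arrays alone the medians were 0.0511 for the same batch (3 pairs) and -0.0263 for different batches (6 pairs). Alternatives were the serum batch as a block, the 6 stimulated arrays alone, all 28 arrays, a filter on dim probe sets, cyclic loess, quantile normalization, trended robust moderation, and leaving out arrays, batches or both disputed arrays. Tested on simulated data with 38382 probe sets, the stimulated comparison recovered 52% of changes of 0.5 log2 and 100% of changes of 1 log2, with 3 false calls, and the contrast 22% and 90%, with 10. The simulation changed 50 probe sets at each size and used independent noise without serum batches. In the data 2071 probe sets were called, so these shares need not hold there.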

Additional observations from a re-analysis of the deposited data

Results flagged for a closer look

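The difference of B7.10 from DT40 was itself different with and without stimulation for 5 probe sets of 4 genes, by limma's test of that contrast. The contrast averages the unstimulated arrays of 6 h and 24 h, and against those of 6 h alone 1 of the 5 passed. BASP1 gave -2.39 log2 on its brighter probe set and -1.86 on the other. IL18 gave -2.33, MME gave -1.51 and GRAPL gave -1.30, while the other probe sets of IL18, MME and GRAPL did not pass. Each negative value means that B7.10 stood lower relative to DT40 with stimulation than without it. No cause was tested.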

How the results depend on the processing

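The stimulated comparison, with 2071 probe sets called, gave 958 without both disputed arrays and between 795 and 1921 in the 9 fits that left out 1 stimulated array or 1 serum batch. Blocking on serum batch, the pairing, gave 2693, of which 2070 were shared. The 6 stimulated arrays alone gave 2922, cyclic loess 2296, quantile normalization 2264, trended robust moderation 2062 and the filter on dim probe sets 1999. Adding the other 10 arrays, each alone in its group, leaves the residual degrees of freedom at 12 and so cannot change the count of 2071. The contrast between stimulated and unstimulated differences, with 5 probe sets, gave 9 with the block, 2 with cyclic loess, 2 with quantile normalization, 1 without both disputed arrays, 1 against the unstimulated 6 h arrays alone, and between 0 and 15 when arrays or batches were left out. Under the block GRAPL and IL7R, a cytokine receptor near background in both lines, passed in the stimulated comparison (adjusted p = 0.0309 and 0.0491), and no other named call changed. Of 118 named genes called, 57 kept their call in all 9 fits that left out arrays or batches, 85 in the 6 that left out 1 array, and 75 without both disputed arrays. None of the 118 reversed in any setting run. CLDN5 and TAL1, neither called and both near background, changed sign, CLDN5 running from -0.232 to 0.012, the higher value without serum batch 3, over the fits that left out arrays or batches, and TAL1 at -0.075 without both disputed arrays. The causes were not tested.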

Other observations

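At 2 h with stimulation each line had 1 array, so the values carry no test. EGR1, an immediate-early factor named after its values were seen, read 3.30 log2 in B7.10 and 6.63 in DT40 at 2 h. At 6 h with stimulation it lay near background in both lines, at 2.67, 2.85 and 2.89 in B7.10 and 3.26, 3.18 and 3.32 in DT40. DUSP6 read 3.00 in B7.10 and 6.15 in DT40 at 2 h, and K123 read 3.40 in B7.10 and 6.63 in DT40.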
